A study of Homo sapiens with 4 samples.

Results

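TMEM45A, SLAMF9, TREM1, NRN1, UPK1A, SLCO1B3 and NDNF encode proteins of the cell surface or secreted proteins, and their transcripts were among those that rose most in HT1080 cells at low oxygen. The 7 genes, of 18417 genes with a probe set of their own on the array, were chosen by the size of their rise on these same arrays, in total RNA, in ER-RNA or in both. The rises given here therefore describe the 7 genes and are no test of them. The data come from HT1080, a human fibrosarcoma cell line, kept for 36 h at 21% oxygen (control) or 1% oxygen (hypoxia) in Dulbecco's modified Eagle's medium that was low in serum in both conditions. From each condition total RNA and ER-RNA, which is RNA extracted from an isolated endoplasmic reticulum (ER) fraction, were each hybridised to 1 Affymetrix Human Gene ST array. All 4 arrays carried RNA pooled from 5 experiments, so each value below rests on a single array, no spread between experiments can be given and no p-value was computed.

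Proteins bound for the cell surface or the outside of the cell are made on ribosomes attached to the ER. A signal peptide or a membrane span in the growing chain is read by the signal recognition particle and directs the ribosome there. In hypoxia the transcription factor HIF is stabilised and raises transcripts for glycolysis, oxygen sensing, angiogenesis and matrix remodelling. Most of the 7 genes are better known from other tissues than fibroblasts. TREM1 and SLAMF9 belong to receptor families of blood cells, UPK1A to the urothelium, SLCO1B3 to hepatocytes, and NRN1 and NDNF were named for their actions on neurons.

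Values are on the log2 scale after RMA, the normalization used by the authors. The median probe set stood at 7.41 in control and 7.49 in hypoxia in total RNA, and at 6.25 and 6.34 in ER-RNA, so that hypoxia was compared with control within a fraction. Expression in a fraction required that control or hypoxia exceed the median of its own array. An expressed probe set was called up at a fold change above 1.4 together with a z-score above 3, the z-score being the log2 difference divided by an SD modelled from the mean level. Each of the 7 genes has exactly 1 probe set, none shares a probe set with another gene, and all 7 matched RefSeq by gene identifier. All 7 were called up in total RNA and 6 of them in ER-RNA, all but NDNF. Of all expressed probe sets 3.27% were called up in total RNA and 1.55% in ER-RNA, shares from which nothing can be read about genes picked for their rise. For the 7 genes together the median log2 fold change stood at 2.18 (total RNA) and 2.35 (ER-RNA), beside -0.058 and -0.037 over the expressed genes.

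**Figure D1:**
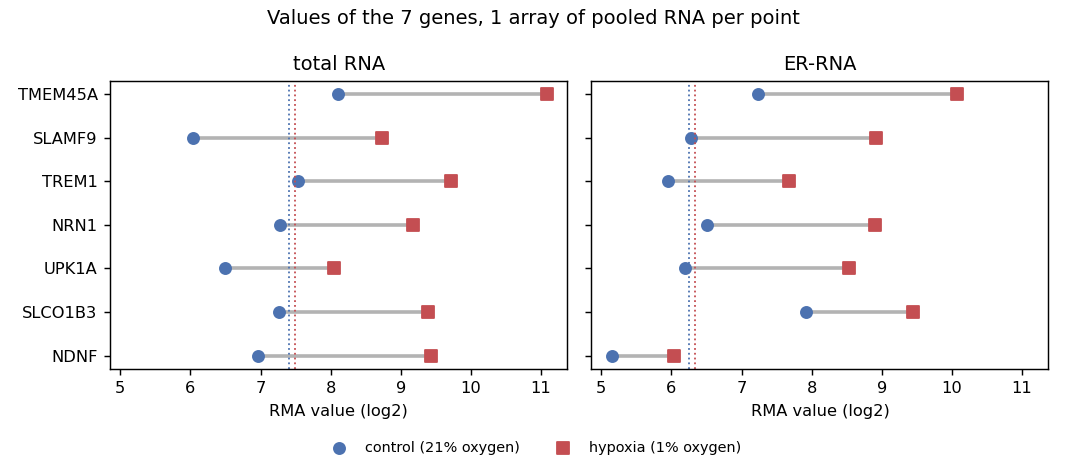
RMA values (log2) of the 7 genes in total RNA (left) and ER-RNA (right), in control (blue circles, 21% oxygen) and hypoxia (red squares, 1% oxygen), each point from 1 array of pooled RNA and with dotted lines at the array medians. In total RNA the 7 hypoxia values lie between 8.06 and 11.08, all above the median of 7.49. For the 5 genes with a control value below the median, passing the filter required this. NDNF stays below the median of 6.34 in ER-RNA at 6.04.

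TMEM45A, which encodes a protein that crosses the membrane several times and whose function is poorly known, had the largest rise in both fractions among the genes ranked. The ranking takes in genes with a probe set that names them alone and leaves out CA9, and larger log2 fold changes were measured outside it in both fractions. In total RNA its value went from 8.10 in control to 11.08 in hypoxia, and in ER-RNA from 7.24 to 10.08. The fold changes were 7.91 and 7.17, with z-scores of 10.7 and 9.04. It was the only one of the 7 genes whose control value exceeded the array median by over 0.5 in both fractions, by 0.69 in total RNA and 0.98 in ER-RNA. In hypoxia it stood at percentile 94.8 of all probe sets in total RNA and at percentile 93.7 in ER-RNA, the highest of the 7 in each. The gene lies at chr3:100492619-100577444 (GRCh38.p14). Its paralog TMEM45B was below the expression filter in both fractions, at 6.73 and 6.65 in total RNA and at 5.71 and 5.85 in ER-RNA.

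SLAMF9, a member of the SLAM family of immunoglobulin-like receptors, rose to a similar extent in both fractions. In total RNA it went from 6.04 in control to 8.73 in hypoxia, and in ER-RNA from 6.28 to 8.91, a 6.48-fold and a 6.21-fold rise. The control value in total RNA was the lowest of the 7 genes there, at percentile 24.5 of the array, and in hypoxia it reached percentile 74.3. SLAMF9 ranked 3 of 11530 genes by its rise in total RNA and 2 of 11876 in ER-RNA. HILPDA, a lipid droplet gene, stood next to it at rank 2 in total RNA (7.41-fold) and at rank 3 in ER-RNA (5.33-fold). The gene lies at chr1:159951492-159983984, a span that also holds the long non-coding RNA gene LINC01133, for which no value was at hand.

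No other measured SLAM receptor or adaptor was called, and SLAMF8 had no value at hand. Of 10 further genes measured from a list of SLAM receptors, SH2D1A, SH2D1B and the kinase gene FYN, 2 passed the filter in total RNA, 3 passed it in ER-RNA, and none was called in either direction in either fraction. SLAMF7, a receptor of lymphocytes and plasma cells, was highest of those expressed, with log2 fold changes of 0.40 (total RNA) and 0.48 (ER-RNA) and z-scores of 1.56 and 2.01. FYN was at 0.12 and -0.011. SH2D1B, an adaptor of SLAM receptors expressed in ER-RNA only, was lowest there at -0.26.

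TREM1 encodes a receptor that amplifies inflammatory signals in neutrophils and monocytes through the adaptor TYROBP. Its total RNA value went from 7.53 to 9.71 and its ER-RNA value from 5.95 to 7.68. The rise was 4.52-fold in total RNA, at rank 8, and 3.32-fold in ER-RNA, at rank 14. Its neighbours in the total RNA ranking were the nuclear receptor gene RORA (4.70-fold) and SLCO1B3 (4.39-fold). In ER-RNA the control value lay below the median of 6.25, and in hypoxia it lay at percentile 74.8, against percentile 86.4 in total RNA. TREM1 lies at chr6:41267385-41286682.

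Of 17 other measured genes of the TREM family and pathway, 1 was called up and 3 were called down in total RNA, while in ER-RNA none was called up and 2 were called down. Of all expressed probe sets 6.39% (total RNA) and 7.31% (ER-RNA) were called down. The adaptor gene TYROBP was at 8.26 and 8.52 in total RNA and at 7.34 and 7.64 in ER-RNA, with z-scores of 1.09 and 1.16. The pathway gene SYK was below the filter, at 7.33 and 7.13 in total RNA and at 5.80 and 6.12 in ER-RNA. PGLYRP1, a peptidoglycan-binding protein reported as a TREM1 ligand, had log2 fold changes of 0.22 and 0.46. The receptors TREM2, TREML1 and TREML4 were below the expression filter in both fractions, and TREML2 was expressed in ER-RNA only, with a log2 fold change of 0.32. Among cytokines that TREM1 signalling is known to raise in myeloid cells, CXCL8 rose in total RNA by 0.84 on the log2 scale and was at 0.65 in ER-RNA (z-score 2.15). CCL3, another chemokine gene, was at 0.40 and 0.65 and was not called. IL1B fell by 0.84 on the log2 scale in total RNA and by 0.73 in ER-RNA. TNF was below the filter in both fractions, and IL6 was below it in total RNA and at -0.45 in ER-RNA (not called). The chemokine gene CCL2 fell by 2.58 in total RNA and fell by 2.25 in ER-RNA, and CSF1, a growth factor of macrophages, fell by 0.88 in total RNA, with -0.26 in ER-RNA (not called). These 17 genes had median log2 fold changes of 0.16 (total RNA) and 0.18 (ER-RNA).

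NRN1, which encodes neuritin, a small protein held at the surface by a lipid anchor and known to promote the outgrowth of neurites, rose more in ER-RNA than in total RNA. In total RNA it went from 7.27 to 9.18, a 3.74-fold rise at rank 17, next to the mitophagy gene BNIP3 (3.78-fold). In ER-RNA it went from 6.51 to 8.91, a 5.26-fold rise at rank 4. Its control values lay close to the array medians, at -0.14 from the median in total RNA and 0.26 from it in ER-RNA. NRN1 lies at chr6:5997999-6007518, and the next annotated gene at higher coordinates, F13A1, was at -0.055 and 0.23 and was not called. The paralog NRN1L was at -0.011 in total RNA and below the filter in ER-RNA.

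NDNF, a secreted glycoprotein that supports neuron survival, was the one of the 7 genes whose change differed most between the fractions. Its value went from 6.97 to 9.43 in total RNA, a 5.51-fold rise at rank 5 with a z-score of 10.7. In ER-RNA it went from 5.15 to 6.04, or 1.85-fold, and both values lay below the medians of 6.25 and 6.34, at percentiles 31.6 and 44.2, so that it was not expressed there by the filter. Without that filter it was called in ER-RNA too, with the same fold change. NDNF lies at chr4:121035613-121072535, and the pseudogene RN7SKP137 inside this span has no value at hand. Of 9 other measured neurotrophic genes, among them BDNF, ARTN, PSPN and MANF, none was called in either fraction. Their log2 fold changes lay between -0.18 and 0.41 (total RNA) and between -0.19 and 0.44 (ER-RNA), with ARTN highest of those expressed in total RNA (0.38) and PSPN in ER-RNA (0.44). The lowest of those expressed were NENF, a secreted neurotrophic factor, in total RNA (-0.18) and in ER-RNA (-0.0032).

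UPK1A, a tetraspanin of the plaques that line the bladder, had the smallest rise of the 7 genes in total RNA and one of the largest in ER-RNA. It went from 6.49 to 8.06 in total RNA, 2.96-fold at rank 38 with a z-score of 4.74, and from 6.19 to 8.54 in ER-RNA, 5.11-fold at rank 5 with a z-score of 9.37. In hypoxia it stood at percentile 62.1 of the array in total RNA and at percentile 84.7 in ER-RNA. Next below it in the ER-RNA ranking was MT1X, a metallothionein, at 4.29-fold. UPK1A lies at chr19:35666517-35678481. The antisense transcript UPK1A-AS1, at chr19:35667948-35673291 and thus inside the span of UPK1A, has a probe set of its own. This went from 7.34 to 7.94 in total RNA (log2 fold change 0.60, not called) and from 6.56 to 7.70 in ER-RNA (log2 fold change 1.15, called up). The protein-coding neighbour on the other side, COX6B1, a subunit of respiratory complex IV, was at -0.54 and -0.25 and was not called. Whether the probes of the overlapping pair keep the strands apart was not tested.

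No other measured uroplakin was called, and UPK3B had no value at hand. Of the 3 others measured, 1 was expressed in total RNA and 2 in ER-RNA. UPK2, which builds the plaque together with UPK1A, was at 7.82 and 7.99 in total RNA and at 6.51 and 6.73 in ER-RNA. UPK3A was expressed in ER-RNA only, with a log2 fold change of 0.11, and UPK1B was below the filter in both fractions.

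SLCO1B3 encodes a transporter through which hepatocytes take up bile acids and drugs, and its transcript had the highest ER-RNA control value of the 7 genes. It went from 7.26 to 9.39 in total RNA, 4.39-fold at rank 9, and from 7.93 to 9.44 in ER-RNA, 2.86-fold at rank 30. Its z-scores were 8.99 and 4.81, and in the ER-RNA ranking PLOD2, a collagen lysyl hydroxylase, ranked directly above it at 2.86-fold. When the SD was taken from the scaled median absolute deviation (MAD) of the log2 differences, which sets another scale for the z-score, the ER-RNA call was lost. SLCO1B3 lies at chr12:20810705-20916911, and its neighbour SLCO1C1 was below the filter in both fractions. The annotated readthrough gene SLCO1B3-SLCO1B7 overlaps SLCO1B3 and had no value at hand, so signal from such a transcript cannot be told apart here. Of 10 other measured SLCO transporters, 1 was called, SLCO3A1, which fell by 0.98 on the log2 scale in total RNA, with -0.26 in ER-RNA (not called). SLCO4A1 was at 0.79 in total RNA (z-score 2.82) and at 0.56 in ER-RNA (z-score 2.19). SLCO1B1, the liver transporter most like SLCO1B3, was below the filter at 5.34 and 5.77 in total RNA and at 4.37 and 4.38 in ER-RNA.

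**Figure D2:**
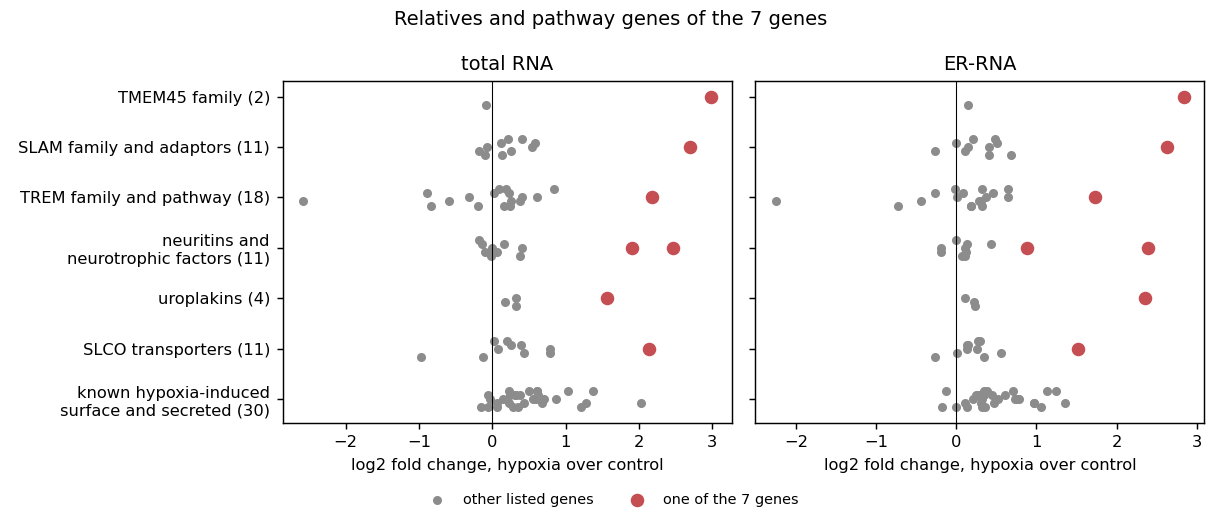
Log2 fold change, hypoxia over control, of genes in 7 lists in total RNA (left) and ER-RNA (right), with the 7 genes in red, other listed genes in grey, the number of measured genes in brackets and a small vertical offset so that points do not overlap. Outside the bottom list, the highest other gene is CXCL8 at 0.84 in total RNA and CD244, which was below the filter, at 0.68 in ER-RNA. The lowest red points are UPK1A at 1.56 in total RNA and NDNF, also below the filter, at 0.89 in ER-RNA. In the bottom list LOX reaches 2.02 and 1.35. The 7 genes were chosen for their rise, so their place above their relatives is no test.

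The 7 genes were also set beside 30 measured genes on the surface or outside of cells that are widely described as induced by hypoxia. In each fraction 23 of them were expressed and could be called. Called up were 9 of these in total RNA, 5 in ER-RNA, and none was called down. Of all expressed probe sets 3.27% (total RNA) and 1.55% (ER-RNA) were called up. The lysyl oxidase gene LOX was highest, with log2 fold changes of 2.02 and 1.35. The chemokine receptor gene CXCR4 rose by 1.28 in total RNA, with 0.97 in ER-RNA (not called), the glucose transporter gene SLC2A3 rose by 1.21 and 1.06, and EFNA3, an ephrin, by 1.03 and 1.24. NDRG1 (1.37 and 1.14) and FGF11 (0.68 and 0.97) were called up in both fractions as well, although their products act mostly inside the cell. SLC2A1, LOXL2 and STC2 rose in total RNA by 0.62, 0.60 and 0.87 and were at 0.70, 0.78 and 0.73 in ER-RNA. PLAUR, the urokinase receptor, was lowest of those expressed in total RNA (-0.054), and ADM, a vasodilator peptide, in ER-RNA (-0.18). The 30 genes had a median of 0.41 (total RNA) and 0.37 (ER-RNA).

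The 7 genes are not all of the surface or secreted genes at these ranks. Named after their values were seen, UCN2, a secreted neuropeptide, ranked 13 in total RNA (4.04-fold), ESM1, a proteoglycan secreted by endothelium, ranked 20 (3.58-fold), JAM2, a junction protein, ranked 21 (3.54-fold) and VLDLR, a lipoprotein receptor, ranked 23 (3.51-fold). LOX, which is secreted too, ranked 12 (4.07-fold). These all lie above UPK1A at rank 38 and, apart from LOX and UCN2, below NRN1 at rank 17. In ER-RNA the cytokine gene IL36B ranked 7 (4.13-fold), below UPK1A at rank 5 and above TREM1 at rank 14. Within the first 20 ranks lay 6 of the 7 genes in total RNA and 5 in ER-RNA.

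**Figure D3:**
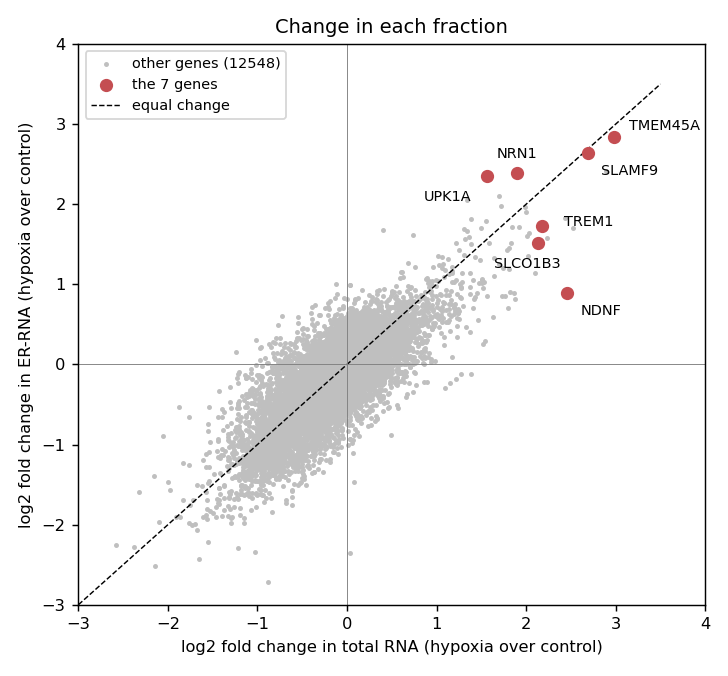
Log2 fold change, hypoxia over control, in total RNA (horizontal) and ER-RNA (vertical) for genes expressed in at least 1 fraction, each grey point a gene, the 7 genes in red and a dashed line of equal change. NRN1 and UPK1A lie above the line, by 0.49 and 0.79, and NDNF lies below it by the widest margin of the 7 (-1.57).

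The fractions were then set side by side for each gene. The log2 fold change was larger in total RNA for 5 of the 7 genes and larger in ER-RNA for NRN1 and UPK1A. The difference, ER-RNA minus total RNA, was -0.14 for TMEM45A, -0.061 for SLAMF9, -0.45 for TREM1 and -0.62 for SLCO1B3. Over the 12555 genes expressed in at least 1 fraction the quartiles of this difference were -0.21 and 0.18. TMEM45A and SLAMF9 lay inside them, and the sign for SLAMF9 turned to 0.047 after loess normalization within each pair. NRN1 stood at percentile 95.7 and UPK1A at percentile 99.2 of all genes, TREM1 at percentile 8.35 and SLCO1B3 at percentile 3.30. NDNF had the 3rd lowest difference of all 12555 genes. It was expressed in total RNA only, through its hypoxia value, and both its ER-RNA values lay below the array medians. The choice of the genes used the rises in both fractions, so these differences are descriptions and were not tested.

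Levels in ER-RNA and total RNA share no scale, and each was therefore taken relative to the median of its array before the fractions were subtracted. By this measure SLCO1B3 was high in ER-RNA in control, 1.82 above its place in total RNA and at percentile 97.4 of the genes. In hypoxia the value was 1.20. SLAMF9 kept a nearly equal value, 1.39 in control and 1.33 in hypoxia, at percentiles 92.6 and 93.2. UPK1A went from 0.85 to 1.63 and NRN1 from 0.39 to 0.88, reaching percentiles 96.5 and 84.0. TREM1 went from -0.43 to -0.88. NDNF went from -0.66, at percentile 16.6, to -2.24, at percentile 0.0876, the lowest of the 7 genes in both conditions. Its ER-RNA values lay below the array medians, so that it was not expressed in ER-RNA by the filter. TMEM45A lay near the median gene, at 0.29 and 0.14, beside a median of 0.14 over all genes in each condition, and after quantile normalization its value in hypoxia was -0.30. The 7 genes thus do not share a direction between the fractions, and a higher value in ER-RNA is a relative signal on the array and not a share of the transcripts of a gene.

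**Figure D4:**
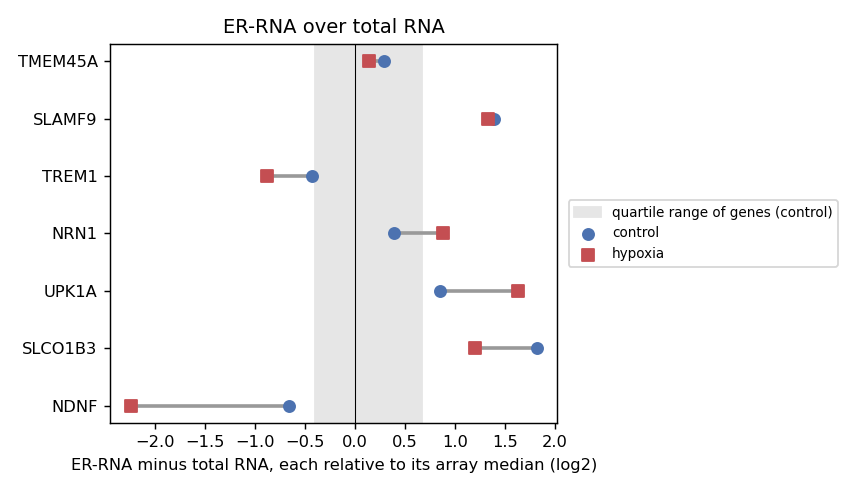
ER-RNA minus total RNA (log2), each value taken relative to the median of its array, for the 7 genes in control (blue circles) and hypoxia (red squares), with the quartile range of all expressed genes in control shaded (-0.40 to 0.67). Values run from -0.66 (NDNF) to 1.82 (SLCO1B3) in control and from -2.24 (NDNF) to 1.63 (UPK1A) in hypoxia.

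Over the 4 arrays the genes most like each of the 7 were found by the Euclidean distance between their log2 values, after the mean of each gene was subtracted. The closest pairing was SLCO1B3 with BNIP3, at a distance of 0.22, followed by SLAMF9 with HILPDA (0.23). TREM1 was nearest to LOX (0.31), NRN1 to the aldolase gene ALDOC (0.33), UPK1A to MT1X (0.40) and NDNF to the integrin gene ITGB3 (0.52). TMEM45A was farthest from its nearest gene, INSIG2, a sterol regulator of the ER membrane (0.82). INSIG2 was also nearest to the mean of the 7 genes (0.32). Among the 7 themselves NRN1 and UPK1A were the most alike (0.65), and SLAMF9 and NDNF the least (3.08). With 4 arrays these distances describe the profiles only.

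The labelled cell type was checked against marker genes. Of 12 fibroblast and mesenchymal markers 10 passed the filter in total RNA and 11 in ER-RNA. VIM was at 12.5 in control in both fractions, and FN1 at 13.2 in total RNA. The collagen genes COL1A2 and COL3A1, at 7.55 and 7.46 in total RNA control, lay close to the median of 7.41. THY1 was below the filter in both fractions, and S100A4 in total RNA. VIM was called up and the matrix gene SPARC called down in both fractions. Markers of the cell types in which the 7 genes are best known, and of endothelium, were mostly below the filter. Of all 18417 genes with a probe set of their own, 11530 passed it in total RNA and 11876 in ER-RNA. For blood cells 2 of 11 passed it in total RNA, 4 of 11 in ER-RNA, and PTPRC, the pan-leukocyte marker, was at 4.67 and 4.65 in total RNA and at 3.24 and 3.55 in ER-RNA. The summed level of the blood list, of which the macrophage marker CD68 was the highest gene, was 12.0 and 11.9 on the log2 scale in total RNA and 10.3 and 10.9 in ER-RNA. CD68 alone was at 11.6 and 11.4 in total RNA and at 9.63 and 10.4 in ER-RNA. Levels of different probe sets are not abundances, so the sum is a description only. For urothelium and other epithelia 3 of 9 were expressed in total RNA and 4 in ER-RNA, for hepatocytes 1 of 9 and 2 of 9, for neurons 4 of 9 and 3 of 9, and for endothelium 1 of 6 and 2 of 6. The highest total RNA control values were 10.1 (KRT18) among the epithelial and 10.5 (NEFL) among the neuronal markers, and GATA3 was at 8.85. In these 5 lists no marker was called up, and 1 was called down, the neuronal gene SNAP25 in ER-RNA. In bulk RNA, more transcript per cell and more cells with the transcript cannot be told apart.

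The promoters were searched for the core of the hypoxia response element, which HIF binds, as the letters ACGTG or GCGTG on either strand. RefSeq promoters (GRCh38.p14), from 250 bases before to 50 bases after a single start per gene, were at hand for 6 of the 7 genes, and NDNF was not analysed here. A core was found in 1 of the 6, SLAMF9, while 48.4% of 27305 promoters of this length held one, and 21.6% held ACGTG. Among the 14239 promoters of genes with a probe set, the shares were 56.7% and 24.0%. The stretch around the core of SLAMF9, chr1:159954454-159954478, is shown because it holds the only match. It is given along the minus strand, in the direction of the gene, and the capitals mark the core, whose first base is at -231 relative to the start.

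SLAMF9: ggcatgcagtACGTGcggggacctg

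No core stood in these windows for TMEM45A, TREM1, NRN1, UPK1A and SLCO1B3, whose share of G and C was highest for TMEM45A (72.3%) and lowest for SLCO1B3. The starts used for SLAMF9 and NRN1 lie inside the annotated span of their genes, and other starts and distal regions were not searched. A match is only a run of letters, and its absence from a short window says nothing about HIF.

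The control values of 5 of the 7 genes in total RNA, all but TMEM45A and TREM1, and of 3 in ER-RNA (TREM1, UPK1A and NDNF) lay below the array median. When control and hypoxia were both required to exceed it, 2 of the 7 genes were called in total RNA, TMEM45A and TREM1, and 4 in ER-RNA. UPK1A lost its call in total RNA also when the scaled MAD set the SD, and where the rule was run on probe sets that name 1 gene only. TMEM45A kept its call in both fractions under each of these settings. The scaled MAD is that of the log2 differences, whereas the loess fit models the SD of the pair. Their z-scores are therefore not on one scale, although the threshold was the same.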

How the data were processed

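The values deposited by the authors are log2 intensities after RMA. Partek 6.4 is named, with RMA, in the submitters' processing notes. Whether all 4 arrays were normalized in 1 run, the genome build and the array annotation used are not given in the sources used here. Each array carried pooled RNA, and precision is limited by having 1 array per condition and fraction. The platform annotation names 1 gene for 19460 of 33297 probe sets, of which 19429 matched RefSeq by gene identifier. Where several probe sets name a gene, the one with the highest mean over the 4 arrays was used. CA9 was not analysed here.

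A rule with the thresholds of the methods was run on the whole table with R 4.3.3 and limma 3.58.1, the rest with Python 3.11.15 and pandas 2.3.3. A loess fit (span 0.75, degree 2) described how the SD of a pair varies with its mean among expressed probe sets. The authors took this model from another article and fitted treated and control groups apart, whereas here both arrays of a pair entered a single fit, so z-scores and calls can differ from the authors'. The rule was also run on simulated data, with noise sized from the same pairs and changes added only above the median mean level. That run cannot speak to the spread between experiments or to genes of low mean level. Ranks and percentiles are descriptions. Genes named from each list are those called plus the highest and lowest expressed. Beside them stand a few relatives of the 7 genes, pathway genes and markers, chosen after their values were seen. Also named are the gene at the smallest distance over the 4 arrays, neighbours in rank, and the next annotated gene on either side. The 7 genes, the gene lists and the settings were chosen with earlier results of these data known. Alternatives changed the normalization, the filter on low values, the model of the SD, the fold change required, which probe sets entered and which stood for a gene, and the motif. Those for the difference between fractions of single genes were added only after seeing the data. Protein features were not analysed here.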

Additional observations from a re-analysis of the deposited data

How the results depend on the processing

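The count of the 7 genes called up in total RNA was 2 with control and hypoxia both required above the 50% quantile, and 4 with either above the 75% quantile. At the 75% quantile SLAMF9 and UPK1A no longer passed the filter, at percentiles 74.3 and 62.1 in hypoxia and lower in control. NRN1, at percentile 80.4 in hypoxia, passed it and still lost its call, the cause of which was not tested. Under the other alternatives it was 6 or 7. In ER-RNA it ran from 4 to 7, the 7 without an expression filter. Median centring, quantile normalization and within-pair loess changed no call of the 7 genes, and under them the median log2 fold change lay between 2.10 and 2.31 (total RNA) and between 2.27 and 2.33 (ER-RNA). The median difference between the fractions was -0.14 and went to -0.53 after quantile normalization. The alternatives for differences between the fractions of single genes were chosen after seeing the data. A change of sign, the cause of which was not tested, was seen for SLAMF9, whose difference of log2 fold changes was 0.0466 after within-pair loess, and for TMEM45A, whose ER-RNA level relative to total RNA in hypoxia was -0.303 after quantile normalization. The probe set with the lowest mean gave the same values, as each gene has 1. The count of promoters with a core was 1 with ACGTG alone. No paired analysis was possible because the groups compared share only 1 replicate number, and total RNA and ER-RNA are not replicates of each other.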
